A study of Mus musculus with 2 samples.

Results

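The array carried 428 chromosome intervals, labelled noncoding, that were covered by 1 probe each, and these single-probe intervals are described here. The label rests on the kind of name the probes carry, and overlap of the intervals with genes was not checked. Members were the non-control spots whose systematic name was a mouse chromosome interval with a strand (mm9) and whose chromosome, start and end were shared by no other probe. They made up 428 of 3540 such intervals and 428 of 55671 non-control probes. Each was read by 1 spot on each array. The rule used no measured value, but it was set with earlier results of these data known.

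Both samples were ATDC5 cells, a mouse line that forms cartilage nodules under insulin, transferrin and selenite (ITS). The GFP sample was a stable line with a doxycycline-inducible GFP transgene, and the A-CEBP sample a stable line with an inducible A-CEBP transgene, which encodes a dominant-negative partner that holds C/EBP transcription factors away from DNA. Both lines received 2 µg/mL doxycycline for 2 days and then ITS for 3 weeks, and total RNA was hybridised to 1-colour Agilent arrays. With 1 array per group, no difference below has a replicate check, and what A-CEBP did and what else set these lines apart cannot be told apart. The sources used here do not say whether the lines were clones, and the transgenes were not measured here. In a whole culture, fewer cells of a type and less RNA per cell cannot be told apart either.

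Long noncoding RNAs are transcripts without a long open reading frame, and many come from stretches between protein-coding genes. Some act on chromatin or on neighbouring genes, others in the cytoplasm, and for many no function is known. They are as a rule less abundant and more tissue-restricted than messenger RNAs. An array probe reads only the short piece of such a transcript that it pairs with, on the strand it was designed for.

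Levels below are log2 of the processed spot signal minus the 75th percentile of all probes on that array, so that 0 marks a probe brighter than 3 in 4 of the others. Differences are the A-CEBP level minus the GFP level on that log2 scale. A probe is called seen where the scanner software marked it as well above background. The 75th percentile stood at 762 intensity units (GFP) and 799 (A-CEBP), 54.6% and 58.0% of non-control spots were seen, and 0 were saturated. Of 14 chondrocyte markers 13 were seen on both arrays, the exception being Matn3, and Col2a1, the main collagen of cartilage, stood at 8.42 and 8.83. Between the samples, 5 of these 13 stood 2-fold or more higher with A-CEBP and 1 stood lower, with a median difference of 0.70. Acan, a cartilage proteoglycan, was at 1.28, Ihh, a growth plate signal, at 1.54, and Prg4, of the joint surface, at -1.55. Of markers of other cell types, Dmp1, Sp7 and Ibsp, of the bone lineage, were at 1.30, 0.88 and 0.14. Of 4 muscle markers with a probe, only Acta1 was seen on both arrays, at 0.77. Of 4 fat markers only Fabp4 was, at -1.93, while Adipoq and Plin1 were seen in the A-CEBP sample only. A single marker gives no direction for its cell type. The part of these marker differences in the results on the intervals was not tested. Of 9 leukocyte markers with a probe 5 were seen on both arrays, while Ptprc, which marks leukocytes in general, was seen on neither. The levels of those 5 ranged from -3.62 to 4.63 (GFP) and from -3.26 to 4.85 (A-CEBP), and their part in the results was not tested.

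Of the 428 single-probe intervals, 172 (40.2%) were seen on both arrays, 3 in the GFP sample only, 23 in the A-CEBP sample only and 230 (53.7%) on neither. By a looser mark of the scanner software, positive and significant signal, 283 of the 428 had signal on both arrays. The share of all probes by that mark is not given here, so this count is not read as particular to the intervals. Probes of intervals with several probes were seen on both arrays somewhat less often (5424 of 15752, or 34.4%), and all other probes more often (23702 of 39491, or 60.0%). The intervals seen on both arrays had a median signal of 181 units (GFP) and 172 (A-CEBP). Those seen on neither had 8.77 and 7.04 units.

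**Figure D1:**
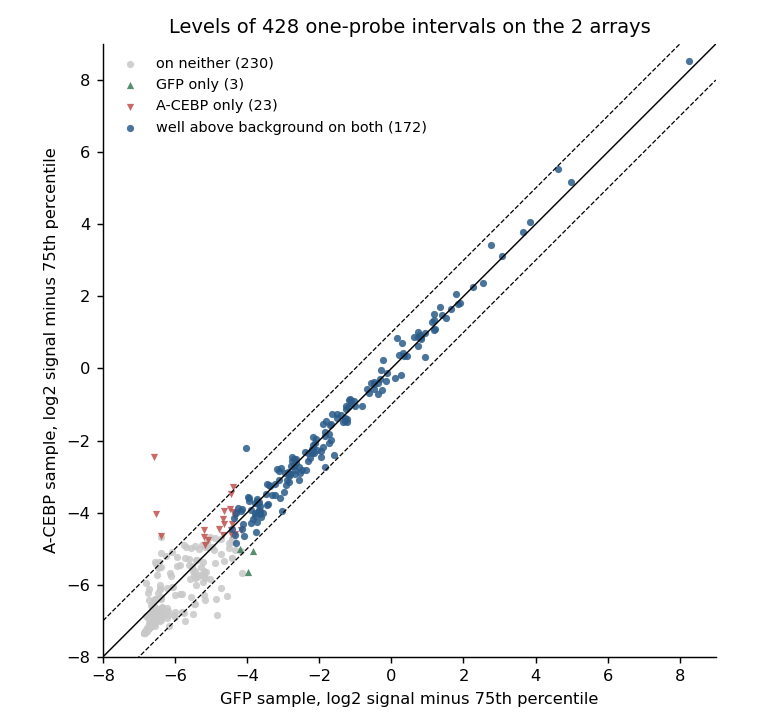
Level of each of the 428 single-probe intervals in the GFP sample (horizontal) and the A-CEBP sample (vertical), both as log2 signal minus the 75th percentile of the array; the solid line marks equal levels and the dashed lines a 2-fold difference. The 172 intervals seen on both arrays lie along the solid line, and 1 of them lies outside the dashed lines.

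Among the 172 intervals seen on both arrays, 1 stood 2-fold or more above its GFP level in the A-CEBP sample and 0 were at least 2-fold lower. Over all 29298 probes seen on both arrays, 0.802% were higher and 1.62% lower by that size, that is 235 and 475 probes, or 549 and 322 with scaling on spike-in spots. The 172 intervals lay near that background, and a count of 0 lower among so few is not particular to them. Among 5424 probes of intervals with several probes, 28 (0.516%) were higher and 102 (1.88%) were lower. The median difference of the 172 was -0.02 (quartiles -0.24 and 0.15), beside 0.02 over all probes seen on both arrays, with 81 intervals above 0 and 91 below. With scaling on spike-in spots the medians were 0.19 and 0.23, and 128 intervals were above 0.

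At a lower bar of 1.5-fold, 4 of the 172 were higher and 5 were lower. The same bar was passed by 3.95% of all probes upward and 4.58% downward. Of the 172, 158 (91.9%) stayed within 0.5 on the log2 scale, beside 88.4% of all probes and 85.3% of the probes of intervals with several probes. The intervals are dim, with a median GFP level of -2.07 beside 0.44 for the probes outside intervals, and 38 of them (22.1%) had a mean level above 0, beside 54.6% of those probes. Among the 38 brighter intervals the differences ran from -0.63 to 0.90 with a median of 0.12, and 25 were above 0. The same values for all bright probes are not given here, so these are not read as a trait of bright intervals. None of the 38 passed 2-fold, as 0.619% (higher) and 1.1% (lower) of all probes above level 0 did. Among the 134 dimmer ones they ran from -0.94 to 1.83 with a median of -0.05. They held the 1 interval past 2-fold, beside 0.968% (higher) and 2.09% (lower) of all probes at or below 0.

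**Figure D2:**
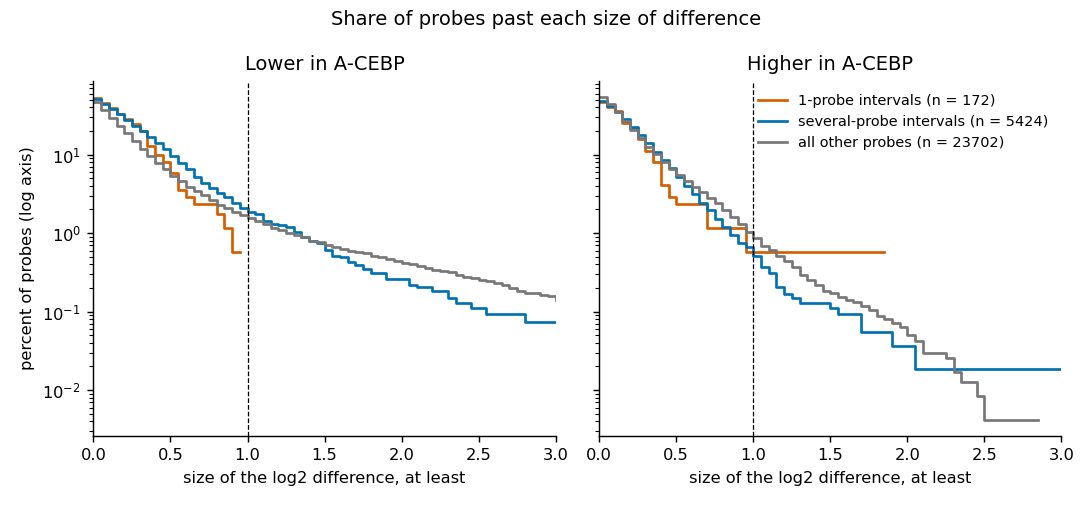
Percent of probes seen on both arrays (vertical, log axis) whose log2 difference was at least the size on the horizontal axis, lower in A-CEBP on the left and higher on the right, for single-probe intervals (172), probes of several-probe intervals (5424) and all other probes (23702). The dashed line marks 2-fold: no single-probe interval passed it on the left, where 1.88% of several-probe interval probes did, and 1 passed it on the right.

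The measurement error of a difference came from 3 sources, none of which covers the spread between cultures. Replicate spots of a probe gave an SD of 0.12 (root mean square, 287 probes), or 0.24 over the 40 of these probes no brighter than the median single-probe interval. Different probes on 1 strand of an interval with several probes gave 0.30 (1397 strands). By the error model of the scanner software the median was 0.22 over the 172 intervals, with a range from 0.20 to 0.43. Differences larger than 2 times the model's error were found for 13 of the 172 (7.56%), 6 higher and 7 lower, beside 12.8% of all probes.

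The 1 interval past 2-fold was chr8:70603786-70604243, reverse strand, 458 bases long. Its spot read 46.8 units (GFP) and 175 units (A-CEBP). As levels these were -4.02 and -2.19, a difference of 1.83 (error 0.29), or 3.55-fold higher. The lowest level of any probe seen on the GFP array was -4.53, so this reading was among the dim ones. Before background subtraction the median pixel signal of the spot was 138 and 269 units, over local backgrounds of 58.5 and 47.5. The 11 seen probes within 2 rows and columns of the spot differed by a median of 0.15, from -0.23 to 0.60.

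No other interval of the array overlapped this one. The nearest, chr8:70623390-70645212, lay 19.1 kb away on the same strand and had 3 probes. The only one of them seen on both arrays was dim as well, at -4.17 and -3.26, and was 0.90 higher in the A-CEBP sample. That neighbour was looked at after its values could be seen, and whether the readings come from 1 transcript was not determined.

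The next largest upward differences belonged to bright spots and stayed under 2-fold. chr4:32294119-32294941 (forward, 823 bases) was among the brightest of all 172, with 18885 units (GFP) and 36966 (A-CEBP). Its levels of 4.63 and 5.53 gave a difference of 0.90 (error 0.20), or 1.87-fold. No other interval lay within 1000 kb of it, and probes of genes were not placed against it. With scaling on spike-in spots it reached 1.11 and passed 2-fold.

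chr6:34548561-34612216 (forward, 63656 bases) read 856 and 1441 units, a difference of 0.68 (error 0.20). It too stood alone, 590 kb from the next interval. chr12:55846405-55846628 (reverse, 224 bases) read 5161 and 8616 units, a difference of 0.67 (error 0.20). This short interval lies inside chr12:55844075-55898175, whose 5 probes seen on the same strand covered levels from 0.16 to 4.73 in the GFP sample. Those 5 differed by only -0.01 to 0.07, so the higher reading was that of the 1 short interval and was not shared by the wider one.

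The other named upward differences ran from 0.36 to 0.45, and an interval on chromosome 18, also among the 12 largest, is counted and not named. chr5:124694137-124695689 (reverse) differed by 0.45, with levels of -0.22 and 0.23, whereas 3 seen probes on the same strand of the wider interval chr5:124667541-124700029 differed by -0.35, 0.13 and 0.23. chr2:77715502-77719430 (forward) differed by 0.42, with 932 and 1307 units. chrX:155947587-155947977 (reverse) and chr2:84427252-84428277 (reverse) were dim, at -3.99 and -3.16 in the GFP sample, and differed by 0.43 and 0.38. chr17:12511718-12521758 (reverse) differed by 0.37 with an error of 0.35. The long intervals chr16:95978147-96138364 (reverse) and chr9:31390809-31591204 (forward) both differed by 0.36. Of the brighter intervals, chr5:143200557-143204033 (reverse) differed by 0.36, against -0.65, -0.25 and -0.08 for the 3 seen probes of overlapping intervals on its strand.

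The largest downward difference was that of chr16:84708695-84708806, a forward-strand interval of 112 bases. Its spot read 93.6 units (GFP) and 51.2 (A-CEBP). The levels were -3.02 and -3.97, a difference of -0.94 (error 0.31), or 1.92-fold lower. It lies inside chr16:84702353-84710928, which has 6 probes. The 4 of these seen on both arrays were all lower in the A-CEBP sample, the 1 on the same strand by -0.63 and the 3 on the opposite strand by -0.18, -0.84 and -0.90. Readings on both strands thus lay on the same side here, at dim levels between -3.84 and -3.23 in the GFP sample.

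chr5:110233482-110487062 (reverse, 253581 bases) was 1.75-fold lower, at -1.58 and -2.39, a difference of -0.81 (error 0.22). Shorter intervals inside it did not follow: the 2 seen probes on its strand differed by -0.35 and 0.06, and the 3 on the other strand by -0.05 to 0.04. chr10:81111250-81130625 (reverse) was 1.69-fold lower, at -3.77 and -4.53, and overlapped no interval. Its error was 0.39, so this difference of -0.76 was under 2 errors. It ranged from -0.79 to -0.36 over the alternatives of processing.

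chr9:78104935-78116974 (forward, 12040 bases) was the lowest of the brighter intervals, with 1463 units (GFP) and 992 (A-CEBP), a difference of -0.63 (error 0.20). It overlaps chr9:78107225-78118850, and 2 same-strand probes there of about the same brightness differed by -0.50 and -0.53. Another same-strand probe stood at -1.20 in the GFP sample and was not seen in the A-CEBP sample, which makes it at least 14-fold lower. That probe was singled out after its value was seen. The 3 probes seen in the GFP sample therefore shared a direction and not a size.

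Also among the brighter intervals, chr9:88598702-88614632 (reverse) was lower by -0.45, at 0.28 and -0.17. A second single-probe interval inside it, chr9:88610323-88614622, differed by -0.37 on the same strand. Of the 5 other seen probes that overlap the first on this strand, 4 were lower, from -0.38 to -0.19, and 1 differed by 0.06. The 3 seen probes on the opposite strand differed by 0.20 to 0.47, so all seen same-strand probes but that 1 lay on the other side of 0. This holds for the main scaling, and scaling on spike-in spots moved the median of all probes from 0.02 to 0.23.

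The other named downward differences among the 12 largest ran from -0.57 to -0.50. They were chr5:104998375-105041300 (reverse, -0.57), chr17:56691095-56693810 (reverse, -0.54), chr12:88221395-88221559 (forward, -0.54) and chr8:26870059-26870530 (forward, -0.53). chr3:85842798-85887216 (forward, -0.51), chr15:60989423-60997290 (forward, -0.50) and chr13:72757829-72760679 (forward, -0.50) followed. All 7 were dim in the GFP sample, between -4.31 and -1.96, and only those on chr17 and chr15 were past 2 errors. A chromosome 18 interval is again counted among the 12 and not named. The remaining brighter intervals that the rule took for lower readings differed by less than the error of 0.20: chr5:137395007-137412976 (forward, -0.17), chr10:126817846-126827484 (forward, -0.14), chr11:95573399-95587949 (forward, -0.12) and chr10:81846505-81863606 (forward, -0.12). These 4 turned positive with scaling on spike-in spots.

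**Figure D3:**
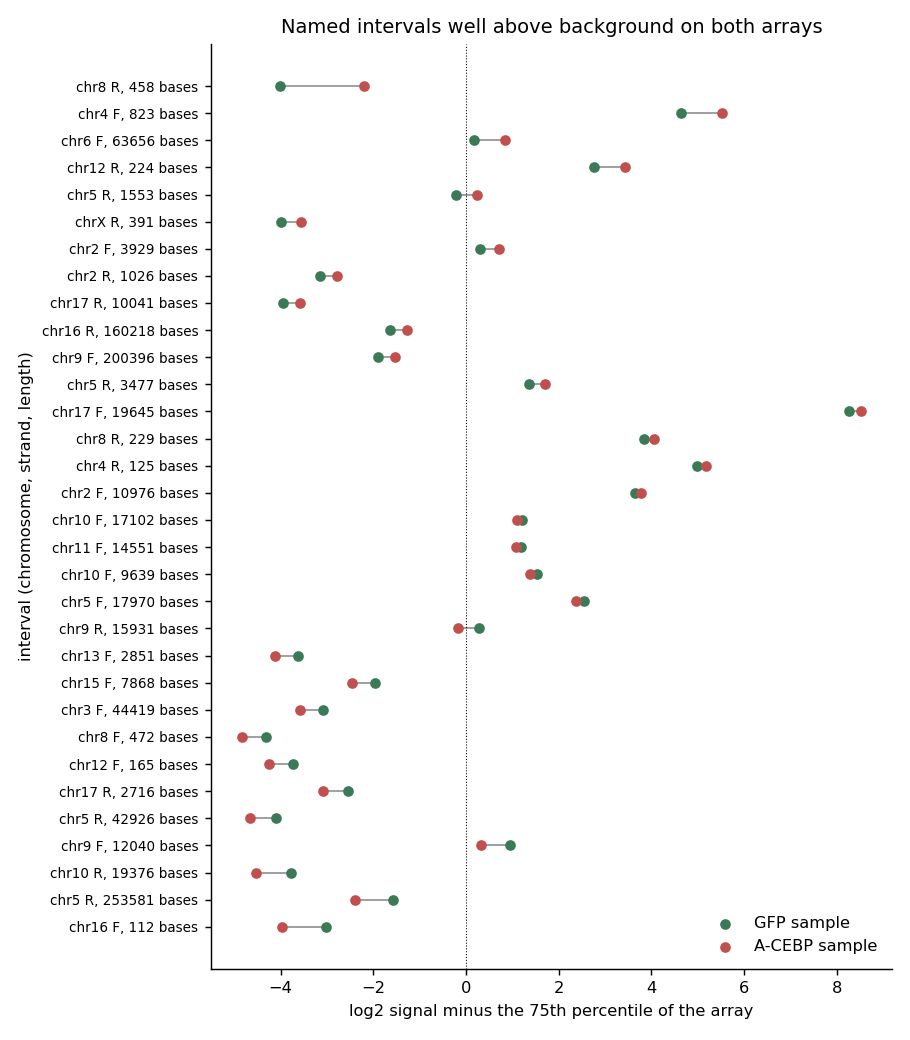
Levels (log2 signal minus the 75th percentile of the array) of the named intervals seen on both arrays, with the GFP sample in green and the A-CEBP sample in red, ordered by difference and labelled by chromosome, strand (F forward, R reverse) and length in bases. Only the 458-base interval on chromosome 8 has its points more than 1 unit apart, from -4.02 to -2.19.

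Of the 6 brightest single-probe intervals, 4 differed by 0.12 to 0.28 and 2 by more. chr17:48068261-48087905 (forward, 19645 bases) read 233351 units (GFP) and 296487 (A-CEBP). Its levels of 8.26 and 8.54 differed by 0.28 (error 0.20). Spot brightness depends on the probe as well as on the RNA, so it does not rank the intervals by amount. An interval on the other strand inside it had 3 probes, none of them seen on both arrays and 1 seen in the A-CEBP sample only, at -4.74. chr4:33364774-33364898 (reverse, 125 bases) followed at 4.98 and 5.18, with a difference of 0.21. Its overlapping forward-strand interval was seen in the A-CEBP sample only, at -4.18. chr8:122994515-122994743 (reverse) stood at 3.84 and 4.06, and chr2:35344311-35355286 (forward) at 3.65 and 3.78. With chr4:32294119-32294941 and chr12:55846405-55846628 described above, which differed by 0.90 and 0.67, these made up the 6 brightest.

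Intervals seen on 1 array only were mostly in the A-CEBP sample, as were such probes in general. In the A-CEBP sample only were 23 of 428, beside 4.67% of all probes, and in the GFP sample only were 3, beside 1.1%. The dimmest probe seen on the A-CEBP array read 24.8 units, beside 32.9 units on the GFP array, and the part of this lower limit in the count was not tested. Of the 23, 7 lay no higher in the A-CEBP sample than the lowest seen level of the GFP array, and 4 had a lower reading there than in the GFP sample. For such intervals only a lower bound on the fold was taken, from the bright level and the higher of the dim level and the lowest seen level of the dim array. The bound reached 2-fold for 2 of the 23, beside 7.46% of all probes seen in the A-CEBP sample only.

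The larger of these bounds was that of chr3:125561319-125562132 (forward, 814 bases). Its spot read 7.93 units in the GFP sample, where it was not well above background, and 145 units in the A-CEBP sample. The A-CEBP level of -2.46 made it at least 4.21-fold higher, which takes no account of error in the dim reading. With normexp background correction its log2 difference was 1.02. That correction adds 50 units to each spot, which draws differences of dim spots toward 0. With it, 124 probes of the array were at least 2-fold higher and 283 lower, beside 235 and 475 in the main setting. The raw pixel medians were 86.5 over a local background of 37.0 and 185 over 34.0. The 10 seen probes around its spot differed by a median of 0.04. Of the 3 other intervals within 100 kb, a forward-strand one 1.59 kb away had no probe seen on both arrays, and 1 probe of a reverse-strand one 4.22 kb away differed by 0.07. chr4:131903928-131909578 (reverse) was at least 2.16-fold higher, at -4.40 and -3.28, and differed by 0.22 on the log2 scale with normexp background correction. A same-strand probe of the interval it overlaps was seen on both arrays and differed by 0.19. The next bounds, at least 1.99-fold for chr2:170486570-170499145 (forward) and at least 1.5-fold for chr17:6495982-6514626 (reverse), were under 2-fold, and the log2 differences were 0.26 and 0.23 with normexp background correction. For the latter, 3 seen same-strand probes of the interval around it were lower in the A-CEBP sample, by -0.67, -0.62 and -0.58. Of the 3 same-strand probes of another overlapping interval, chr17:6514179-6517720, 2 were likewise seen in the A-CEBP sample only, at -4.61 and -4.32, and 1 was seen on both arrays and differed by 0.05.

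The 3 intervals seen in the GFP sample only were short and dim. The bound reached 2-fold for 2 of them, beside 51.5% of all such probes. chr5:113772057-113772146 (forward, 90 bases) read 53.6 and 23.9 units and was at least 2.27-fold lower in the A-CEBP sample. Its log2 difference was -0.55 with normexp background correction, whose added 50 units are as large as these readings or larger. It is one of a run of short forward-strand intervals: 4 further single-probe intervals within 2.22 kb of it were not seen on both arrays. A 2-probe interval 0.053 kb away on the same strand had 1 seen probe, which differed by 0.16. chr6:57695178-57695277 (reverse, 100 bases) read 48.6 and 16 units and was at least 2.05-fold lower, and its log2 difference was -0.39 with normexp background correction. The nearest interval, chr6:57583950-57624216, lay 71.0 kb away, and its 2 forward-strand probes seen on both arrays were lower by -1.73 and -1.70. For chr6:39248007-39248490 (reverse, 484 bases) the bound was at least 1.74-fold, with a log2 difference of -0.34 after that correction, and 4 seen same-strand probes of the interval it overlaps differed by -0.33 to 0.02.

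The intervals themselves were varied. They ranged from 62 to 7128487 bases with a median of 3944, lay on 20 chromosomes, and 226 were named on the forward and 202 on the reverse strand. Intervals of over 1000 bases were seen on both arrays more often (118 of 259, or 45.6%) than shorter ones (54 of 169, or 32.0%), and the same order held for the probes of several-probe intervals, at 35.7% and 26.9%. The median difference of the longer ones was 0.01 and that of the shorter ones -0.05. Strand made little difference, with 92 of 226 forward intervals (40.7%) and 80 of 202 reverse intervals (39.6%) seen, and median differences of -0.04 and 0.02. The longest interval, chr7:39351858-46480344, was seen on neither array. By chromosome, the share seen ran from 17.2% on chromosome 4 (5 of 29) to 75% on chromosome 16 (6 of 8), with few intervals on each. The 5 seen on chromosome 4 all had positive differences, from 0.04 to 0.90. The 11 seen on chromosome 9 had the lowest median, -0.36, beside -0.33 over the 7 seen on chromosome X. These chromosomes were singled out after their values were seen. The chromosome 9 intervals include an overlapping pair on the same strand.

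**Figure D4:**
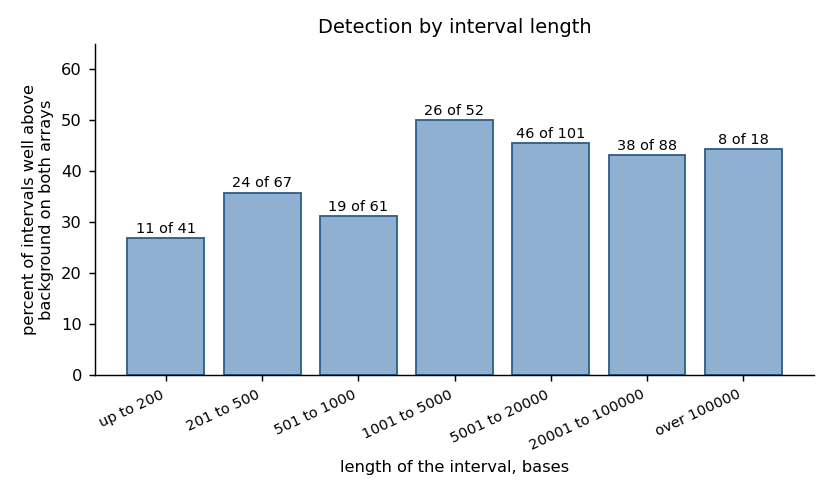
Percent of single-probe intervals seen on both arrays (bars, from 0) in classes of interval length in bases, with the number seen and the number in the class above each bar. The 3 classes up to 1000 bases lie between 26.8% and 35.8%, and the longer ones between 43.2% and 50%.

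Although no other probe was given the same coordinates, 258 of the 428 intervals overlapped another interval of the array, 213 of them on the same strand and 228 on the opposite strand. Overlapping intervals were seen on both arrays more often (122 of 258, or 47.3%) than those that overlapped none (50 of 170, or 29.4%). Where an overlapping same-strand probe was seen, 84 of 153 single-probe intervals were seen too (54.9%), beside 18 of 60 (30.0%) where none was. For opposite-strand probes the shares were 73 of 142 (51.4%) and 39 of 86 (45.3%). These intervals share arrays, and some share the same neighbours.

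Differences were also set beside those of overlapping probes. Over the 84 intervals with seen same-strand neighbours, the interval and the median of its neighbours lay a median of 0.21 apart, with the same sign in 50. The differences of all 172 seen intervals lay a median of 0.20 from 0, so a gap of this size does not show agreement. Pearson's r was 0.12 and Spearman's rho 0.21, given as a description over points that share both arrays. Over the 73 with seen opposite-strand neighbours the gap was 0.24, with the same sign in 45, r = 0.16 and rho = 0.07. Both strands gave weak values.

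In 3 places, picked after their values were seen, the neighbours' median was lower by more than 0.9 and the single-probe interval was not. chr2:156654934-156665632 (reverse) stood at -1.68 and -1.55, a difference of 0.13. One probe of the overlapping chr2:156654675-156665430, on the same strand, stood at 0.18 and -2.09, a difference of -2.26. For chr19:61227541-61274669 (forward) the values were 0.10 for the interval and -1.43 for 1 overlapping probe. For chrX:20539200-20563428 (forward) the interval differed by 0.06, and its 2 seen same-strand neighbours by -1.86 and 0.01.

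**Figure D5:**
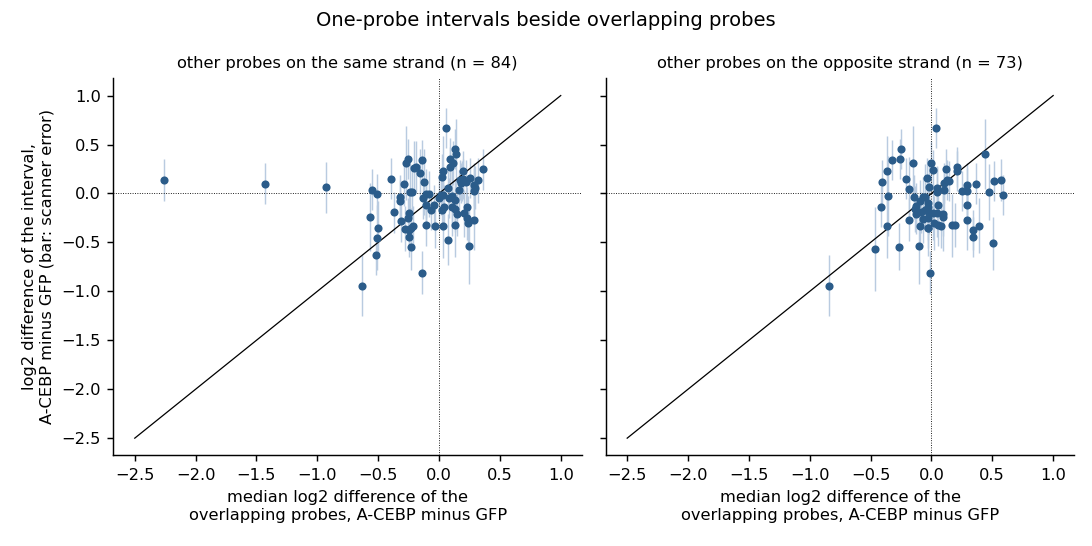
Log2 difference, A-CEBP minus GFP, of single-probe intervals seen on both arrays (vertical, with the scanner's error as bars) against the median difference of overlapping probes seen on both arrays (horizontal), for probes on the same strand (84 intervals) and on the opposite strand (73). Most points lie between -0.5 and 0.5 on both axes; the 3 points on the far left are the intervals on chromosomes 2, 19 and X with neighbours at -2.26, -1.43 and -0.93.

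Within 100 kb of each other lay 109 pairs of single-probe intervals, 19 of them overlapping. Both members were seen in 22 pairs, 1 in 24 and neither in 63. In the 22 pairs the differences had the same sign in 12. As only 1 interval was past 2-fold, no pair could have both members past it.

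Named long noncoding RNA genes were read by other probes. Of a fixed list of 53, 30 had a probe and 23 were seen on both arrays, with 0 at least 2-fold higher and 0 lower. Over all probes seen on both arrays the shares were 0.802% and 1.62%. Counts of 0 are therefore not particular to these 23 genes. Their median difference was -0.20, and 0.01 with scaling on spike-in spots, over a range from -0.58 to 0.38. Snhg17 and Snhg5, hosts of small nucleolar RNAs, were at -0.58 and -0.38, and Snhg18 at 0.38. Neat1, the scaffold of nuclear paraspeckles, was at -0.32 (5.95 and 5.63), Malat1, of nuclear speckles, at -0.21, and Tug1 at -0.12. Of 524 probes with RefSeq noncoding accessions seen on both arrays, 3 (0.573%) were higher and 3 were lower by 2-fold, with a median of -0.03. With scaling on spike-in spots these counts were 14 and 1, and the median 0.18.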

How the data were processed

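Total RNA from 2 samples, 1 array each, was labelled with Cy3 and hybridised, per the labels. Values in the deposited scanner files are linear intensity per spot, background-subtracted and detrended within the array by Agilent Feature Extraction 10.10.1.1, per the file headers and the submitters' processing notes, with no scaling between arrays. The headers give mm9 as the build. The authors' deposited table holds intensity equal to these values times 1.24 (GFP) and 1.15 (A-CEBP).

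The log2 of the processed signal was taken, 293 outlier spots were left out (0 of them of single-probe intervals), spots of a probe were averaged, and the 75th percentile of each array was subtracted. A probe was seen where over 50% of its spots were well above background. The 13 interval probes named without a strand were not members. With 1 array a group there was no test, and the size rule was 2-fold. The number of arrays limits the precision.

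The members, the 7 lists and the alternatives were chosen with earlier results of these data known. The rule for named intervals took the 12 largest differences in each direction, the 6 largest in each direction with a mean level above 0, the 4 largest bounds in each direction, the 6 brightest, pairs of 2-fold intervals within 100 kb, and intervals that overlap another and were themselves at least 4-fold apart between the samples; those on chromosome 18 were counted only. The last 2 criteria took none. Normexp used median signals and an offset of 50 units, which draws differences of dim spots toward 0. Genes near the intervals and probe sequences were not analysed here. RefSeq (GRCm38.p6) served for gene names only. Python 3.11.15, pandas 2.3.3, R 4.3.3 and limma 3.58.1 were used.

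Of the lists for other cell types, 2 of 4 endothelial, 3 of 3 osteoblast, 1 of 4 adipocyte and 1 of 4 muscle markers with a probe were seen on both arrays.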

Additional observations from a re-analysis of the deposited data

How the results depend on the processing

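The 1 interval at least 2-fold higher and the count of 0 lower came out the same without scaling, with median, quantile or cyclic loess scaling, with the percentile over probes seen on both arrays, with the authors' deposited values, with normexp background and with outlier spots kept. Over all 9 alternatives of scaling, background and outlier spots, the chromosome 8 interval ranged from 1.06 (normexp) to 2.04 (spike-in), and chr3:125561319-125562132, seen in A-CEBP only, from 1.02 to 4.34. With scaling on spike-in spots 2 intervals were higher, the other being chr4:32294119-32294941, and the median was 0.19, beside a move from 0.02 to 0.23 for all probes under that scaling. Among intervals brighter than the median one, 0 were higher. With a 1.5-fold rule 4 were higher and 5 lower, beside 3.95% and 4.58% of all probes seen on both arrays. With the looser mark for positive and significant signal, 283 intervals were seen, 4 higher and 11 lower. With no detection filter 11 were higher and 14 lower, with a median of -0.21. Both settings admit dim spots, whose readings are less certain. Without a filter the 230 intervals seen on neither array enter the median. Their median signals were 8.77 units (GFP) and 7.04 (A-CEBP), so the -0.21 is not read as a change in RNA. The shares of all probes under these 2 settings are not given here, so the counts are not read as particular to the intervals. With the strand as part of an interval's identity, 267 were seen and 3 were lower, beside 1.62% of all probes seen on both arrays. Among intervals that overlap none, 50 were seen, with a median of 0.11. Of the 39 named intervals, 17 moved by more than the scanner's error with spike-in scaling and 13 with normexp background; 0 did under the other alternatives. Of the 4 intervals seen on 1 array only whose bound reached 2-fold, 3 differed by less than 2-fold with normexp background (0.22, -0.55 and -0.39). Because its offset of 50 units draws dim differences toward 0, these values do not decide whether the bounds hold. No paired analysis was possible because each group held 1 sample.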
